A study of Rattus norvegicus with 30 samples.

Results

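Adipogenic induction of rat bone marrow mesenchymal stem cells (BMSCs) was examined at its first sampled time point, by comparing cells after 3 h in adipogenic medium (AD_3h, n = 3) with undifferentiated cells (CON, n = 3). These 6 samples were chosen by their labels from the 30 samples of the study, which formed 10 groups of 3, and every gene name was described, not only transcription factors (TFs). The cells came from the marrow of 3 female Sprague Dawley rats 3 weeks old, were grown to passage 2 in DMEM with 10% FBS, and were then moved to a commercial adipogenic medium (PromoCell), while CON cells were taken before induction. Cells of 3 cultures were pooled for each sample, and no sample labels tie a sample to a rat. The SE and p-values rest on the spread between samples within all 10 groups, not within AD_3h and CON alone. That spread may be technical. Osteogenic and chondrogenic medium at 3 h (OS_3h and CH_3h) and adipogenic medium at 12 h (AD_12h) were used only to place the changes of AD_3h. Uninduced cells kept for 3 h were not used here, so that a change of medium and the inducers in it cannot be told apart in the comparison with CON.

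BMSCs are stromal cells of the marrow that can become osteoblasts, adipocytes or chondrocytes. Adipogenic media usually hold a glucocorticoid, an inhibitor of phosphodiesterases that raises cAMP, and insulin, although the composition of this medium is not given in the sources used here. In the classical scheme, early regulators such as Klf4 and the C/EBP factors come first, later ones such as Pparg and Cebpa follow, and genes of lipid synthesis and storage come last. Wnt, BMP, Sox9 and the Id proteins shape this choice of lineage.

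The files gave CPM, read counts scaled to a common library total, with totals before scaling of 6594559 to 7179051 reads in CON and 6355230 to 9046719 reads in AD_3h. The listed genes held 53.7 to 54.2% of the total in CON and 60.7 to 63.8% in AD_3h, and 5173 to 5241 gene names had a read in CON against 5551 to 6051 in AD_3h. Of 9999 names, 4363 had at least 1 CPM in at least 3 of the 30 samples and were tested. A signal of 3 reads was taken as the floor (a mean of 0.434 CPM in CON and 0.417 CPM in AD_3h), which covers counting error only. Several genes that every cell uses were listed near this floor, for example Actb at 0.942 CPM and the mesenchymal filament gene Vim at 0.370 CPM in AD_3h, so that a low listed value was not read as a silent gene. Of 22 stromal markers 13 were listed. Thy1 (mean 8052 CPM in CON and 6416 CPM in AD_3h), Itgb1 (7729.6 and 9369.8 CPM) and Cd9 (1080.1 and 1014 CPM) were far above the floor, whereas Eng, Nes and Twist1 lay at or near it in both groups. Of the 7 tested markers only Cd44 passed, a rise of 1.03 that was lost under the median-ratio scaling described further on. Of the markers of other marrow cells, Adgre1, Mrc1 and Erg were listed at 0 in all 6 samples. The summed level of the 2 tested haematopoietic markers was 0.152 to 0.573 CPM in CON and 0 to 1.22 CPM in AD_3h, that of the 2 tested endothelial markers was 3.34 to 4.32 CPM and 4.56 to 6.25 CPM, and that of the 1 tested erythroid marker was 0.696 to 1.003 CPM and 0.663 to 1.19 CPM. Tek, an angiopoietin receptor of endothelium, was listed at 0.143, 0 and 0.910 CPM in CON and 2.54, 3.30 and 3.72 CPM in AD_3h and rose by 1.68 on the log2 scale, whereas Vwf, the other tested endothelial marker, was listed at 3.72, 4.32 and 2.43 CPM in CON and 2.21, 1.26 and 2.53 CPM in AD_3h (log2 fold change -0.58, adjusted p = 0.099). The endothelial markers Kdr and Esam were at or near the floor. The part of these other cells in the results was not tested.

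After 3 h in adipogenic medium, 541 genes rose and 280 fell, which were 12.4% and 6.42% of the tested genes (18.8% in both directions). A gene was counted where its log2 fold change was at least 1 in size and its adjusted p was under 0.05 (limma, Benjamini-Hochberg adjustment over all 4363 genes). Fold changes here are differences of log2(CPM + 1), which understates the change of low genes, and are given with the SE of the fit. In 816 of these 821 genes the AD_3h samples did not overlap the CON samples, compared with 2448 of all tested genes (56.1%). The median log2 fold change of all tested genes was 0.15. Median-ratio scaling, which takes the typical gene as the reference, moved that median to 0 and gave 396 rises and 392 falls, and edgeR on the recovered reads gave 481 and 532, so that 65.9%, 50.3% and 47.5% of the calls were rises in the 3 analyses. With every sample brought to an equal total of the listed reads, whose share was larger in AD_3h, 428 genes rose and 369 fell. Rises close to a log2 fold change of 1 depend on this choice.

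**Figure D1:**
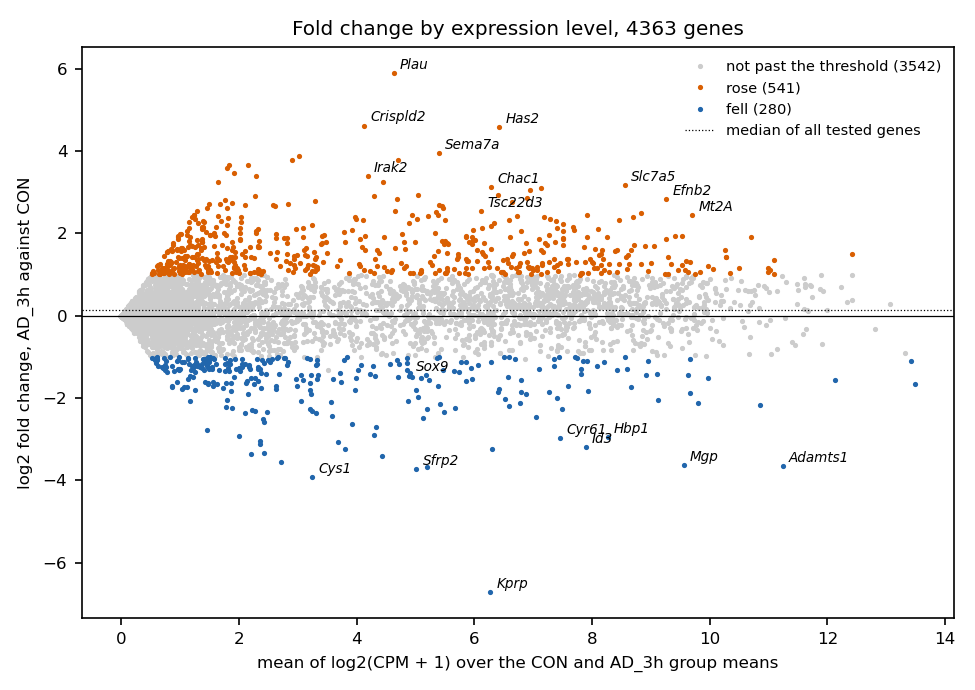
Each point is 1 of the 4363 tested genes, with the mean of log2(CPM + 1) over the CON and AD_3h group means on the x axis and the log2 fold change of AD_3h against CON on the y axis. Orange points are the 541 genes that rose, blue points the 280 that fell, and the dotted line is the median of all tested genes at 0.15. Plau at the top and Kprp at the bottom lie apart from the other genes.

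The gene with the largest rise was Plau, which encodes the urokinase-type plasminogen activator, a protease of the cell surface. It was listed at 1.72, 1.53 and 3.49 CPM in CON and 182, 176 and 203 CPM in AD_3h (log2 fold change 5.90 ± 0.33, adjusted p = 7e-15). Crispld2, a secreted protein known as a target of glucocorticoids, was listed at 2.15, 2.79 and 2.58 CPM in CON and 84.0, 84.2 and 86.8 CPM in AD_3h (4.62 ± 0.23, adjusted p = 3.8e-16), and Has2, the main synthase of hyaluronan, at 18.8, 18.1 and 13.0 CPM in CON and 390.2, 459 and 401 CPM in AD_3h (4.58 ± 0.27, adjusted p = 1.7e-14). In these 3 genes every AD_3h sample lay many-fold above the highest CON sample. Sema7a, a membrane-anchored semaphorin, followed with 12.3, 9.47 and 7.58 CPM in CON and 166, 149 and 177 CPM in AD_3h, and the log2 fold change was 3.96 ± 0.17, adjusted p = 9.7e-18.

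The other 8 of the 12 largest rises spanned log2 fold changes of 3.39 to 3.88. They were Erfe, the erythroferrone hormone that lowers hepcidin, Gprc5a, an orphan receptor induced by retinoic acid, Fgl2, a fibrinogen-like protein, Nppc, the C-type natriuretic peptide precursor, Stab1, a scavenger receptor, Ngfr, the low-affinity neurotrophin receptor, Nup210l, a relative of a nuclear pore protein, and MGC94891. Gprc5a rose from 5.01, 5.15 and 7.89 CPM in CON to 94.1, 86.7 and 102 CPM in AD_3h. Stab1 and MGC94891 had no read in any CON sample and were listed at 11.4, 12.0 and 11.7 CPM and at 11.2, 12.6 and 9.37 CPM in AD_3h. Set against the floor of CON, they were at least 26.9-fold and 25.4-fold higher in AD_3h. Nppc and Ngfr, at or under 3 reads in each CON sample, were at least 34.0-fold and 26.3-fold higher. Over all names, 76 were at or above 1 CPM in every AD_3h sample while at 3 reads or fewer in every CON sample, and 24 showed the reverse.

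**Figure D2:**
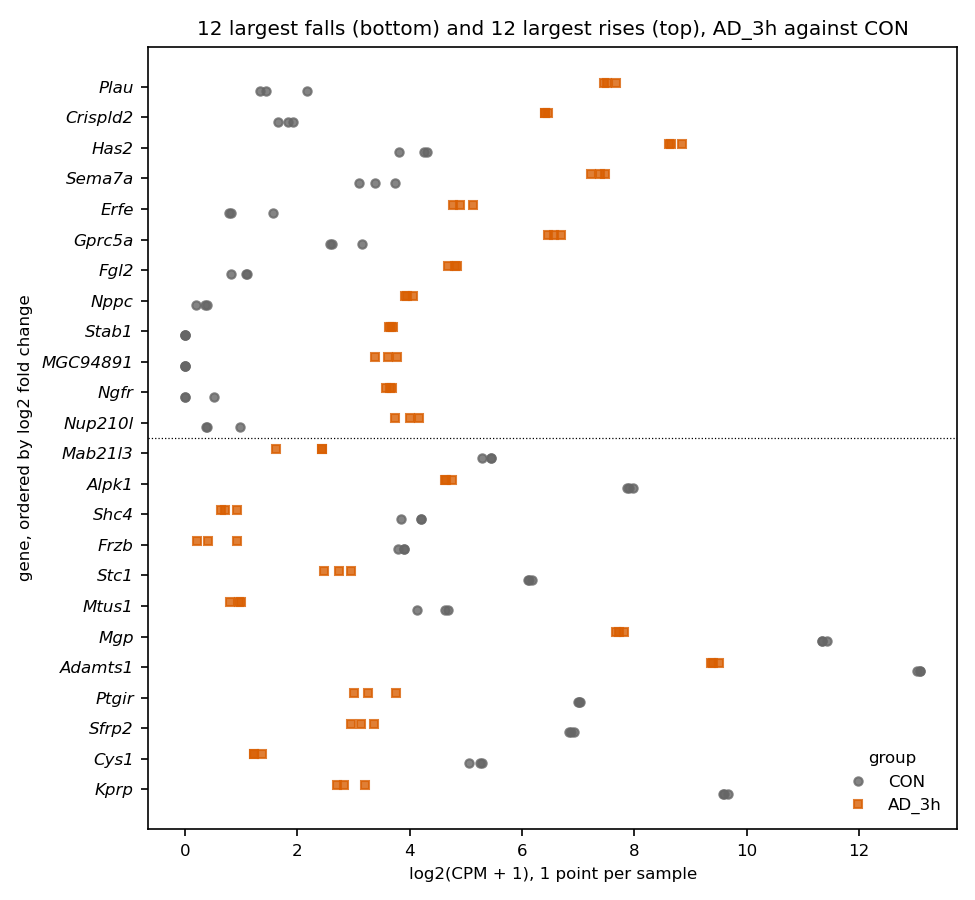
The 12 largest rises (top) and the 12 largest falls (bottom) among genes with at least 5 CPM in the higher group and no overlap between the groups, with log2(CPM + 1) on the x axis and 1 point per sample (grey circles CON, orange squares AD_3h). In all 24 genes the 3 points of one group stand clear of the other, and Plau (mean 2.25 CPM in CON, 187 CPM in AD_3h) and Kprp (783 CPM in CON, 6.59 CPM in AD_3h) show the widest gaps.

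Kprp, named for a proline-rich protein of keratinocytes, had the largest fall, from 772, 767 and 811 CPM in CON to 8.18, 5.51 and 6.10 CPM in AD_3h (-6.71 ± 0.65, adjusted p = 9.7e-10). Adamts1, a matrix protease that cleaves proteoglycans, fell from 8703, 8679 and 8337 CPM to 673, 656 and 722 CPM (-3.65 ± 0.14, adjusted p = 1.2e-18). Mgp, the matrix Gla protein that inhibits calcification, fell from 2749.6, 2604 and 2603 CPM to 211, 223 and 204 CPM (-3.64 ± 0.23, adjusted p = 8.5e-14). For each of the 3 genes the highest AD_3h sample stayed far below the lowest CON sample. Ptgir, the prostacyclin receptor, fell from 129, 126 and 128 CPM to 7.07, 8.50 and 12.5 CPM (-3.67 ± 0.24, adjusted p = 1.9e-13).

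Cys1, Sfrp2, Mtus1, Stc1, Frzb, Shc4, Alpk1 and Mab21l3 made up the rest of the 12 largest falls, with log2 fold changes of -3.93 to -3.23. Sfrp2 and Frzb encode secreted Wnt antagonists, Stc1 the hormone stanniocalcin, Shc4 an adaptor of receptor tyrosine kinases and Alpk1 a kinase that senses a bacterial sugar. Alpk1, for example, was listed at 239, 252 and 231 CPM in CON and 23.8, 23.9 and 25.9 CPM in AD_3h. Hbp1, a transcriptional repressor that restrains the cell cycle, was chosen after its values were seen, as a fall at a high level. It had a mean of 851 ± 37.3 CPM (SD, n = 3) in CON and 109.9 ± 9.50 CPM in AD_3h (-2.94 ± 0.09, adjusted p = 1.3e-20). Efnb2, a membrane-bound ephrin ligand chosen in the same way, rose from 228 ± 4.66 CPM to 1629 ± 22.7 CPM (2.83 ± 0.10, adjusted p = 2e-19).

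Regulators of adipogenesis were few among the tested genes and did not move together. The shares of members that rose and fell in this and the other gene lists are to be set against the 12.4% and 6.42% of all tested genes. Of 20 early regulators only 6 were listed, namely Klf4, Klf5, Nfia, Zfp467, Zfp423 and Ebf2. No C/EBP factor was among these 6, and regulators that were not listed could not be followed. Of the 4 tested, 1 rose and 1 fell. Klf4, a zinc finger factor that acts upstream of Cebpb in early adipogenesis, rose from 217, 232 and 241 CPM in CON to 768, 757 and 771 CPM in AD_3h (1.73 ± 0.21, adjusted p = 6.4e-08). Zfp467, which favours adipocytes over osteoblasts, fell from a maximum of 2.12 CPM in CON to 0 in all 3 AD_3h samples (-1.14 ± 0.25, adjusted p = 0.0004), and its log2 fold change was -0.88 without the third CON sample, short of the threshold. Klf5 had a log2 fold change of -0.95, which passed the threshold under median-ratio scaling and with edgeR but not here.

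None of the 3 tested late regulators, Pparg, Cebpa and Srebf1, passed the limma test or edgeR, and 1 had an unadjusted p under 0.05. Pparg, the nuclear receptor that drives the adipocyte programme, was listed at 0, 0.139 and 0 CPM in CON and 0.774, 0.472 and 0.297 CPM in AD_3h, a log2 fold change of 0.52 with an adjusted p of 0.036. Each CON sample was at or under the floor, and with a pseudocount of 0.1 Pparg counted as a rise. Cebpa was listed at 0.859, 0.418 and 1.06 CPM in CON and 1.88, 0.472 and 1.78 CPM in AD_3h, and the groups overlapped.

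Among 13 tested adipocyte genes, 4 (30.8%) rose and none fell, with a median log2 fold change of 0.14 beside 0.15 for all tested genes. Fabp5, a fatty acid carrier, rose from 36.2, 34.5 and 35.9 CPM in CON to 183, 154 and 187 CPM in AD_3h (2.26 ± 0.16, adjusted p = 1.8e-12). Fasn, the fatty acid synthase, rose from 694, 697 and 733 CPM to 2220.0, 1949 and 2240.1 CPM (1.59 ± 0.15, adjusted p = 9.6e-10). Acsl1 and Dgat2, enzymes of fatty acid activation and triglyceride synthesis, had log2 fold changes of 1.11 and 1.05. Neither of the latter pair passed under median-ratio scaling. Lpl, the lipoprotein lipase, was listed at 721, 663 and 777 CPM in CON and 559, 571 and 607 CPM in AD_3h and did not pass (log2 fold change -0.31). Plin1, Lep, Cfd and Slc2a4, which mark mature adipocytes, had means at or near the floor in both groups, and Cd36 and Lipe were listed at 0.

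Genes listed as inhibitors of adipogenesis moved both ways, with 2 rises (22.2%) and 3 falls (33.3%) among 9 tested genes. Their median log2 fold change was -0.85, and the role of each member in these cells was not tested. Id3, a helix-loop-helix protein that blocks DNA binding of its partners, fell from 683, 689 and 769.7 CPM in CON to 88.4, 65.6 and 80.3 CPM in AD_3h (-3.18 ± 0.20, adjusted p = 5.8e-14). Sox9, the master factor of cartilage, fell from 46.6, 46.8 and 50.8 CPM to 19.0, 17.6 and 14.4 CPM (-1.45 ± 0.14, adjusted p = 1.3e-09), and Id2 from 41.3, 43.0 and 37.0 CPM to 19.9, 19.4 and 18.6 CPM (-1.03 ± 0.24, adjusted p = 0.00081). The log2 fold change of Id2 was -0.98 without the second CON sample. Snai2, a repressor of epithelial genes, rose from 7.59, 5.85 and 7.89 CPM to 17.1, 25.2 and 17.7 CPM (1.36 ± 0.28, adjusted p = 0.00021). Foxc2 rose by 1.20 on the log2 scale, which was lost under median-ratio scaling. Under that scaling 6 members of this list fell, since Klf3, Zfp521 and Bhlhe40, with log2 fold changes of -0.87, -0.84 and -0.85 here, then came past the threshold.

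Of 30 glucocorticoid-responsive genes 8 were listed and 6 tested, and of these 2 rose and 1 fell (33.3% and 16.7%, median 0.53). Tsc22d3, which encodes the glucocorticoid-induced leucine zipper, rose from 31.1, 26.9 and 25.3 CPM in CON to 181, 156 and 163 CPM in AD_3h (2.54 ± 0.15, adjusted p = 4.2e-14). Mt2A, a metallothionein that binds zinc and copper and is induced by both metals and glucocorticoids, rose from 342, 316 and 410.0 CPM to 2011, 1730.1 and 2089 CPM (2.45 ± 0.13, adjusted p = 2.3e-15). Both genes were also higher than in osteogenic medium at 3 h, by 1.09 and 1.85 on the log2 scale, and Mt2A was higher than in chondrogenic medium by 2.55, whereas the difference of Tsc22d3 from chondrogenic medium (0.35) did not pass. Tgm2, a transglutaminase of the same list, was lower in AD_3h than in both, by a log2 difference of -2.21 from osteogenic and -1.79 from chondrogenic medium. Hsd11b1, which regenerates active glucocorticoid inside cells, fell from 1246, 1208 and 1056 CPM to 542, 566 and 595 CPM (-1.04 ± 0.10, adjusted p = 3e-10), with a log2 fold change of -0.99 without the first CON sample. Sgk1 and Nfkbia, with 0.40 and 0.46, did not pass.

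The promoter of Mt2A is shown because this gene was higher in AD_3h than in CON, OS_3h and CH_3h. The 250 bases before the RefSeq start (GRCr8, chr19:10838709-10838958, minus strand) are printed with each match to the core of the metal response element, TGCGCNC on either strand, in capitals. The letters occurred 2 times in this stretch, and in 11.8% of the 33469 promoter stretches of this length in the table at least once. Among the promoters of tested genes the share was 24.1%, and it was 19.8% for genes that rose and 21.5% for genes that fell. A glucocorticoid response element, searched as GNACA and TGTNC with 3 bases of any kind between them, was not among the letters of this stretch. It was found in 0.373% of all promoters, in 3 of the 3206 of tested genes, in 1 of the 405 promoters of genes that rose and in 0 of the 205 of genes that fell.
Mt2A: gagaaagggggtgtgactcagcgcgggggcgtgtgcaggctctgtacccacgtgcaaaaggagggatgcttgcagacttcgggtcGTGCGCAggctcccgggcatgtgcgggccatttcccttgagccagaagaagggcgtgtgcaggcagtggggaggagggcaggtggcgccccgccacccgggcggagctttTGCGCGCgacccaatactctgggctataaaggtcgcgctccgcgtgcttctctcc

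Genes known to respond to cAMP numbered 11 in the test, of which 5 rose and 2 fell (45.5% and 18.2%), with a median of 0.73. One of the 5 was Crispld2, also known as a glucocorticoid target, and without it 4 of 10 rose. Pde10a, a phosphodiesterase of both cyclic nucleotides, rose from 1.15, 0.418 and 0.455 CPM in CON to 7.41, 5.35 and 4.31 CPM in AD_3h (adjusted p = 4.9e-07), and Areg, the EGF receptor ligand amphiregulin, from 0.430, 0.836 and 0.758 CPM to 2.98, 2.52 and 4.76 CPM (1.38 ± 0.23, adjusted p = 1.5e-05). Pde3b and the small GTPase gene Gem rose by 1.05 and 1.11, and both were lost under median-ratio scaling. Cited2, a coactivator that competes for CBP and p300, fell from 423, 466 and 491 CPM to 136, 118 and 133 CPM (-1.83 ± 0.13, adjusted p = 1.8e-12). Pde4b, a phosphodiesterase that cAMP can induce, fell from 8.45, 7.10 and 10.8 CPM to 3.65, 3.93 and 3.72 CPM (-1.02 ± 0.32, adjusted p = 0.011), or by 0.88 on the log2 scale without the third CON sample. Nr4a1, a nuclear receptor of the immediate early response, was listed at 0.430, 1.67 and 0.303 CPM in CON and at 0 in all AD_3h samples, and Crem at 3 reads or fewer in all 6. Both were too low to be tested. The letters of the full cAMP response element, TGACGTCA, stood in 3.70% of the promoters of genes that rose, 1.95% of those of genes that fell, 2.90% of those of all tested genes and 1.59% of all promoters in the table.

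In the insulin and IGF list 1 of 12 tested genes rose (8.33%) and 2 fell (16.7%), beside 12.4% and 6.42% of all tested genes. Sesn2, sestrin 2, which restrains mTORC1 when amino acids are short, rose from 187, 177 and 174 CPM in CON to 938, 996 and 927 CPM in AD_3h (2.40 ± 0.09, adjusted p = 1.2e-18). Igfbp6, which binds IGF2, fell from 438, 446 and 417 CPM to 209, 186 and 200.3 CPM (-1.13 ± 0.31, adjusted p = 0.0035). The adaptor Grb14 fell by 1.09, with an adjusted p of 0.046 in the fit of all 30 samples. Its mean was 335 ± 6.28 CPM (SD, n = 3) in CON and 156 ± 6.60 CPM in AD_3h. It lost the call whichever of the 6 samples was left out of that fit, but kept it when the 6 samples were fitted alone. Insulin substrates and kinases such as Irs2 (0.24) and Pik3r1 (0.31) did not pass.

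Genes of the matrix and of its turnover were among the largest changes in both directions, namely Plau and Has2 upwards and Adamts1 and Mgp downwards. Of 19 tested matrix genes 1 rose, Has2, and 5 fell (5.26% and 26.3%, beside 12.4% and 6.42% of all tested genes). Of 12 tested genes of the plasminogen system and matrix proteases, 2 rose, Plau and Adamts8, and 2 fell, Adamts1 and Mmp2 (16.7% each way). Cemip, which binds hyaluronan and drives its breakdown, fell from 20866, 20136 and 20114 CPM in CON to 6336, 6199.8 and 6737 CPM in AD_3h (-1.67 ± 0.13, adjusted p = 9.8e-12), the opposite direction to Has2. Lum, a small proteoglycan of collagen fibrils, fell from 55.7, 47.9 and 47.3 CPM to 7.30, 7.24 and 5.95 CPM (-2.71 ± 0.75, adjusted p = 0.0041). Mmp2, gelatinase A, fell from 15811, 15663 and 16224 CPM to 7521, 7026 and 7941 CPM (-1.09 ± 0.18, adjusted p = 1e-05), a call lost under quantile normalization at a log2 fold change of -0.62. Adamts8 rose from 12.2, 9.33 and 11.4 CPM to 94.4, 86.4 and 91.0 CPM (2.94 ± 0.35, adjusted p = 3.9e-08). The summed level of the 19 matrix genes was 27833 ± 497 CPM (SD, n = 3) in CON and 14641 ± 415 CPM in AD_3h, and Cemip alone made up 73.2% of it in CON. Without Cemip the direction turned, and the sum of the other 18 genes was 7461 ± 68.9 CPM in CON and 8217 ± 195 CPM in AD_3h.

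Contractile genes and known targets of SRF and YAP also moved both ways, with 3 rises and 5 falls among 17 tested. The share that rose (17.6%) was near the 12.4% of all tested genes, and 29.4% fell beside 6.42%. Cnn1, Tagln and Actg2, which encode calponin, transgelin and a smooth muscle actin, rose, and Cnn1 went from 87.1, 88.7 and 88.0 CPM in CON to 315, 311 and 302 CPM in AD_3h (1.80 ± 0.17, adjusted p = 3.9e-10). Actg2 had no read in CON and was at least 6.97-fold higher in AD_3h. The matricellular proteins Cyr61 and Ctgf, both classical YAP targets, fell. Cyr61 was listed at 458, 495 and 520.0 CPM in CON and 69.4, 50.4 and 66.2 CPM in AD_3h (-2.98 ± 0.29, adjusted p = 9.1e-10), and Ctgf at 16.8, 11.8 and 19.6 CPM in CON and 3.54, 5.66 and 5.35 CPM in AD_3h (-1.54 ± 0.35, adjusted p = 0.00058). Myh10, non-muscle myosin heavy chain IIB, fell from 7812, 7945 and 7498 CPM to 2579, 2663 and 2579 CPM (-1.57 ± 0.11, adjusted p = 6.1e-13), and the muscle and adhesion genes Tpm1 and Vcl by 1.53 and 1.01 on the log2 scale.

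Genes of the Wnt pathway fell or did not pass, with 0 rises and 4 falls (23.5%) among 17 tested (median -0.21), beside 12.4% and 6.42% of all tested genes, and 6 falls with edgeR. The 4 were the secreted antagonists Sfrp2, Frzb and Dkk3 and the feedback inhibitor Axin2. Sfrp2 was listed at 116, 119.7 and 113 CPM in CON and 6.74, 9.28 and 7.73 CPM in AD_3h (-3.72 ± 0.75, adjusted p = 0.00016), and Frzb at 13.9, 13.9 and 12.9 CPM in CON and 0.332, 0.157 and 0.892 CPM in AD_3h (-3.35 ± 0.40, adjusted p = 4.9e-08). Dkk3 fell from 2.44, 4.18 and 3.64 CPM to 0.663, 0.944 and 0.744 CPM (-1.29 ± 0.33, adjusted p = 0.0018). Axin2 fell by 1.01, close to the threshold, and 4 of the 6 left-out samples took it below, with log2 fold changes of -0.77 to -0.99.

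In the TGF-beta, BMP and activin list 2 genes rose (15.4%, near the 12.4% of all tested genes) and 4 fell (30.8%, beside 6.42%) among 13 tested (median 0.68). Bambi, a decoy receptor that dampens TGF-beta and BMP signals, rose from 6.59, 6.13 and 4.85 CPM in CON to 32.4, 32.3 and 40.3 CPM in AD_3h (2.39 ± 0.31, adjusted p = 2e-07), and the stress cytokine Gdf15 from 0.286, 0.279 and 1.21 CPM to 3.87, 2.36 and 2.23 CPM (1.29 ± 0.31, adjusted p = 0.00098). The falls were Id3 and Id2, both targets of BMP signals, the activin receptor Acvr2b (-1.91 ± 0.34, adjusted p = 3.3e-05) and the BMP antagonist Nog (-1.42 ± 0.41, adjusted p = 0.0061). Nog was listed at 6.73, 6.96 and 10.3 CPM in CON and 1.66, 2.20 and 3.27 CPM in AD_3h, without overlap.

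Among 8 tested osteoblast genes 1 rose, and among 10 tested chondrocyte genes Sox9 fell and none rose, counts near those that the shares of all tested genes (12.4% up and 6.42% down) would give. In the chondrocyte list 2 fell under median-ratio scaling and quantile normalization, and 3 fell and 1 rose with edgeR, and in the osteoblast list 1 fell in each of these analyses. Dlx3, a homeobox factor of bone and skin, rose from 27.9, 29.4 and 31.7 CPM in CON to 232, 229.6 and 234 CPM in AD_3h (2.93 ± 0.30, adjusted p = 2e-09). Of the Hox genes, 3 of 7 tested (42.9%) fell and none rose, namely Hoxd9, Hoxc6 and Hoxd10, with log2 fold changes of -1.46 to -1.17. All 3 were low, at no more than 3.18 CPM in any CON sample.

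Cytokine and NF-kB genes moved both ways, with 4 rises and 4 falls (25.0% each) among 16 tested (median -0.77), beside 12.4% and 6.42% of all tested genes. The balance depended on the analysis, with 2 rises and 7 falls under median-ratio scaling, 3 and 7 under quantile normalization, and 4 and 9 with edgeR. The neutrophil chemokines Cxcl1 and Cxcl2 rose. Cxcl1 was listed at 2996, 3574 and 3120.0 CPM in CON and 8859.8, 9249.7 and 9363 CPM in AD_3h (1.51 ± 0.13, adjusted p = 6.1e-11), and Cxcl2 at 3.29, 3.76 and 4.70 CPM in CON and 13.3, 14.2 and 14.1 CPM in AD_3h (1.60 ± 0.22, adjusted p = 7.7e-07). The monocyte chemokine Ccl7 fell from 1116, 1129.5 and 1145 CPM to 266, 261 and 287 CPM (-2.05 ± 0.36, adjusted p = 2.8e-05), and Csf2, the growth factor of granulocytes and macrophages, from 4.30, 3.20 and 3.34 CPM to 0.297 CPM in one AD_3h sample and 0 in the other two, at least 8.67-fold lower. Relb and Irf5 fell by 1.31 and 1.28. Il1b and Cxcl10 rose by 1.14 and 1.03, and neither passed under median-ratio scaling. Il6 and Ccl2, with log2 fold changes of -0.81 and -0.98, fell past the threshold under that scaling and with edgeR. Interferon genes gave 1 fall, Ifi27 (-1.19), among 9 tested.

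Of 7 tested immediate early and MAPK feedback genes 2 rose (28.6%, beside 12.4% of all tested genes) and none fell. Dusp4, a phosphatase that switches off MAP kinases in the nucleus, rose from 36.4, 37.9 and 36.7 CPM in CON to 251, 248 and 273 CPM in AD_3h (2.76 ± 0.21, adjusted p = 7.5e-12). Dusp6 rose by 1.04, which was lost under median-ratio scaling and with edgeR. Jun had a log2 fold change of 0.69 and did not pass, and Myc and Atf3 were at or near the floor.

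Hypoxia genes gave 1 rise (7.69%) and 3 falls (23.1%) among 13 tested, beside 12.4% and 6.42% of all tested genes. Epas1, which encodes HIF-2alpha, rose from 366, 383 and 380.3 CPM in CON to 1388, 1529 and 1406 CPM in AD_3h (1.93 ± 0.15, adjusted p = 4.3e-12). Egln3, an oxygen-sensing hydroxylase that marks HIF for decay, fell from 157, 150.3 and 168 CPM to 46.2, 39.5 and 44.5 CPM (-1.85 ± 0.23, adjusted p = 8.8e-08), and Bnip3, a mitophagy receptor, from 347, 342 and 344 CPM to 105, 99.3 and 113 CPM (-1.70 ± 0.12, adjusted p = 2.1e-12), beside the fall of Stc1. In the sterol list none of 14 tested genes rose and 2 fell (14.3%), or 4 under median-ratio scaling, quantile normalization and edgeR. Insig1, which holds SREBP in the ER, was among the 2 and fell by 1.09. No clock gene passed the limma test among 6 tested, while 1 had an unadjusted p under 0.05 and 1 fell with edgeR.

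**Figure D3:**
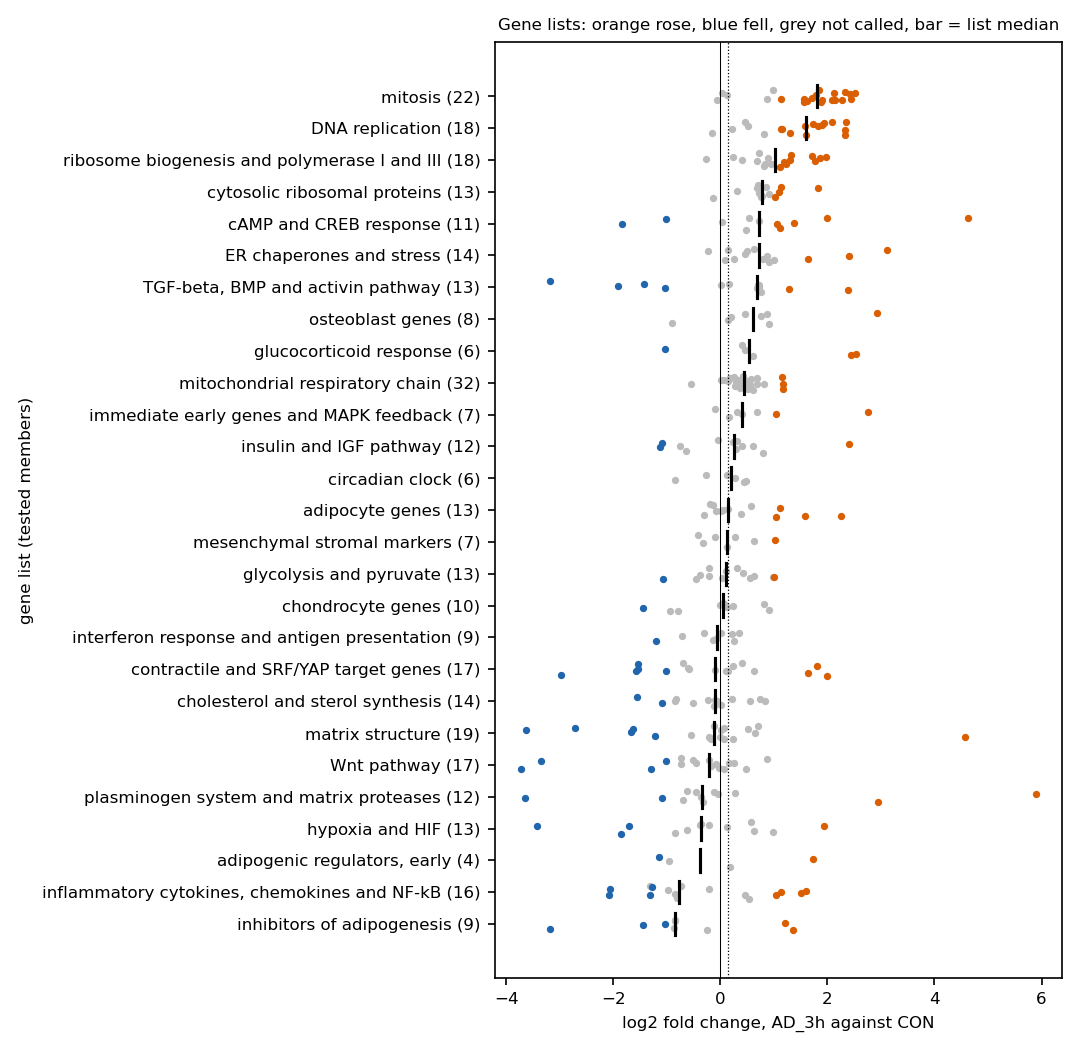
Log2 fold changes of AD_3h against CON for the tested members of each gene list with at least 4 tested members, without gene families and the lists put together after values were seen, ordered by their median (black bar). Orange points rose, blue points fell, grey points did not pass, and the dotted line marks the median of all tested genes, 0.15. The lists of mitosis, DNA replication and ribosome biogenesis stand at the top of those shown with medians of 1.81, 1.59 and 1.03.

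Genes of the cell cycle rose together. Of 22 tested genes of mitosis 17 rose and none fell (median 1.81), and of 18 tested genes of DNA replication 13 rose and none fell (median 1.59), beside 12.4% of all tested genes. Under median-ratio scaling 16 and 12 rose, and with edgeR 17 and 12. Birc5, survivin, which guides chromosomes at cell division, was listed at 14.3, 21.9 and 12.7 CPM in CON and 93.8, 97.6 and 94.9 CPM in AD_3h (2.51 ± 0.19, adjusted p = 3.8e-12). Kif20a, a kinesin of cytokinesis, went from 104, 113 and 90.8 CPM to 539.5, 557 and 584 CPM (2.44 ± 0.20, adjusted p = 3.1e-11), and Ccnf, cyclin F, from 47.8, 43.5 and 42.3 CPM to 246, 234 and 252 CPM (2.43 ± 0.17, adjusted p = 9.1e-13). Mcm3 and Mcm6, subunits of the replicative helicase, rose by 2.36 and 2.08, and Cdt1 and Gins3, which load and activate it, by 2.34 and 2.33. The summed level of the mitosis genes was 454 ± 25.8 CPM (SD, n = 3) in CON and 1965 ± 40.2 CPM in AD_3h, and that of the replication genes 684 ± 19.8 CPM and 2335 ± 121 CPM. In bulk samples, more cells in a phase of the cycle and more RNA per cell cannot be told apart. Both sums were also above CON in the other media. The mitosis sum was 1920.3 to 1998 CPM in AD_3h, below the 2294 to 2355 CPM of OS_3h and the 2932 to 3061 CPM of CH_3h, without overlap. The replication sum, 2249 to 2473 CPM in AD_3h, overlapped that of OS_3h (2340.3 to 2462 CPM) and lay below that of CH_3h (3225 to 3519 CPM). Few single genes passed in these comparisons, in which 7.66% (OS_3h) and 9.35% (CH_3h) of all tested genes did. No replication gene passed the limma test or edgeR against OS_3h or CH_3h, with 2 (1 higher and 1 lower) and 6 (all lower) at an unadjusted p under 0.05. No mitosis gene passed limma against OS_3h, with 5 at an unadjusted p under 0.05 (1 higher and 4 lower) and 1 lower with edgeR. Against CH_3h 1 mitosis gene was higher and 1 lower, and 9 had an unadjusted p under 0.05 (3 higher and 6 lower). The shares of all tested genes at an unadjusted p under 0.05 were not counted, so the counts at that level are a description only.

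Promoter sequences of 3 mitosis genes and 1 replication gene are shown because these genes rose together and belong to the classical cell cycle promoters. RefSeq promoters were found for 13 of the 17 mitosis genes and for 12 of the 13 replication genes that rose, and the 250 bases before the start were searched on both strands. The cell cycle homology region, searched as TTTGAA, stood in 9 of the 13 promoters (69.2%) and in 16.2% of all 33469 promoters (10.7% of the 3206 of tested genes). The letters CCAAT stood in 11 of the 13 (84.6%) and in 34.0% of all (35.7% of tested genes). Both stood in 9 of the 13 and in 5.87% of all (4.12% of tested genes). In the 16 promoters of all tested mitosis genes, risen or not, these 3 shares were 62.5%, 75.0% and 56.25%. For all genes that rose they were 14.6%, 43.2% and 8.15%, and for all that fell 12.2%, 34.1% and 3.90%. The letters were thus common in the list as a whole, and a tie to the rise was not tested. E2F letters, TTTGGCGC or TTTCGCGC, stood in 3 of the 12 replication promoters (25.0%) and in 0.636% of all (1.15% of tested genes). They stood in 4 of the 14 promoters of all tested replication genes (28.6%), in 1.73% of those of all genes that rose and in 0.488% of those of genes that fell. With the 50 bases after the start included, they stood in 6 of the 12 and 0.792% of all (48 of the 3206 of tested genes). In the lines for Birc5, Ccnf and Cenpa, capitals mark TTTGAA and CCAAT on either strand (as ATTGG where the match is on the opposite one), and in that for Mcm6 they mark overlapping matches to both E2F forms. On GRCr8 the stretches are chr10:103571896-103572145 on the plus strand for Birc5, and on the minus strand chr10:13783670-13783919 for Ccnf, chr6:31431553-31431802 for Cenpa and chr13:42404353-42404602 for Mcm6. A match is a description of the letters and not a bound site.
Birc5: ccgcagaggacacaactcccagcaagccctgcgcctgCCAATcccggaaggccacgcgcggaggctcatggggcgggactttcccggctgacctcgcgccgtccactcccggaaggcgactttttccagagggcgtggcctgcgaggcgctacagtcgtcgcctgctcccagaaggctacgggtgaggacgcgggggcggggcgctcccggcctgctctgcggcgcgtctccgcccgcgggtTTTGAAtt
Ccnf: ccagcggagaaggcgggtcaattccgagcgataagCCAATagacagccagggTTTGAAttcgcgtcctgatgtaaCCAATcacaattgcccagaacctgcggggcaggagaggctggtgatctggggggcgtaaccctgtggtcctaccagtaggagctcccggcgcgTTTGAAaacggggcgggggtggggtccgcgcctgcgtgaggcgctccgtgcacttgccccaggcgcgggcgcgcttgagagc
Cenpa: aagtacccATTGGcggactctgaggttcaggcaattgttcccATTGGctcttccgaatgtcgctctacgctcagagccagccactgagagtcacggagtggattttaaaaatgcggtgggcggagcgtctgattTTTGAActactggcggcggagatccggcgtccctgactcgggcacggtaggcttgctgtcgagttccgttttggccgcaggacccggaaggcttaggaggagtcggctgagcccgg
Mcm6: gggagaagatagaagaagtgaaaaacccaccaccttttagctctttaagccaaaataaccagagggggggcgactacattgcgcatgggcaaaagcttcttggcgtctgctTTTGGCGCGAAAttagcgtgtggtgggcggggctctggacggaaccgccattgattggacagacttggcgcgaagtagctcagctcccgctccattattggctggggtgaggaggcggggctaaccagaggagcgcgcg
Cenpa, the centromeric histone of these 4, rose from 6.33 CPM in CON to 30.4 CPM in AD_3h (log2 fold change 2.09).

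**Figure D4:**
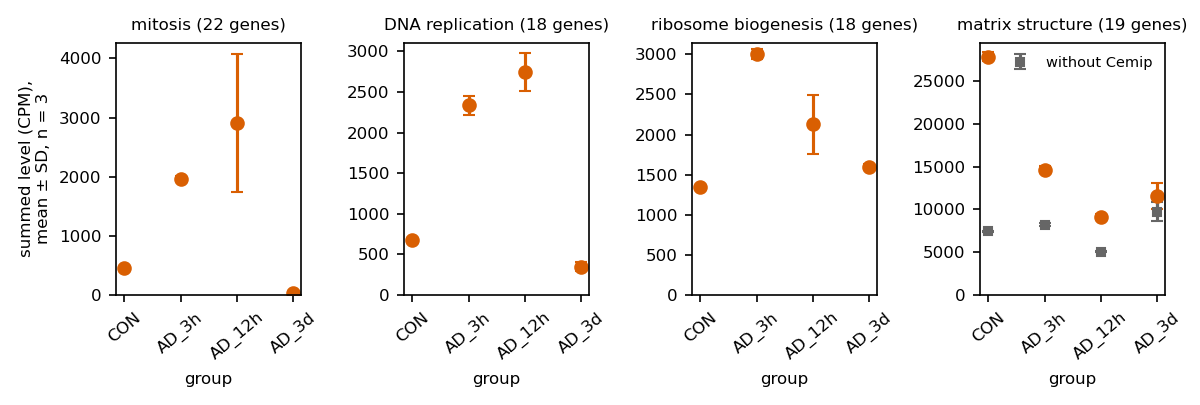
Summed level in CPM (mean ± SD, n = 3) of the tested genes of mitosis, DNA replication, ribosome biogenesis and matrix structure in CON and after 3 h, 12 h and 3 d in adipogenic medium. The mitosis sum was 454 CPM in CON, 1965 CPM at 3 h, 2906 CPM at 12 h with a wide spread (SD 1162 CPM), and 36.7 CPM at 3 d. The matrix sum (orange) was below CON at each later time, but without Cemip (grey squares) it was 7461 CPM in CON, 8217 CPM at 3 h, 5049.9 CPM at 12 h and 9743 CPM at 3 d.

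Genes of ribosome biogenesis rose in 9 of 18 tested cases and fell in none (median 1.03), with 6 rises under median-ratio scaling. Rrp12 and Rrp1b, processing factors of ribosomal RNA, rose from 80.5, 82.2 and 68.5 CPM to 312, 297 and 305 CPM (1.97 ± 0.14, adjusted p = 9.1e-13) and from 68.2, 67.3 and 78.4 CPM to 266, 242 and 272 CPM (1.85 ± 0.09, adjusted p = 1e-15). Bop1, another processing factor, rose by 1.71 and Tsr1 by 1.77. The median was 0.79 for 13 tested ribosomal proteins and 0.44 for 32 tested genes of the respiratory chain, and 4 (30.8%) and 3 (9.38%) of these rose, beside 12.4% of all tested genes. Under median-ratio scaling 1 and 0 rose. Ribosomal protein genes share reads with near-identical pseudogenes, and their values are uncertain.

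Genes of the ER stress and amino acid response held some of the larger rises. Of 14 tested ER genes 3 rose, and these were Chac1, Sesn2 and Asns, which act in the response to short amino acids, while the chaperone Hspa5 missed the fold threshold closely, with means of 3869 and 7738 CPM, and Pdia3 and Pdia6 did not pass. Chac1, an enzyme that degrades glutathione, rose from 25.9, 23.1 and 27.6 CPM in CON to 237, 219.7 and 232 CPM in AD_3h (3.12 ± 0.18, adjusted p = 1.1e-14). Asns, asparagine synthetase, rose from 0.430, 0.696 and 1.82 CPM to 4.97, 6.61 and 3.57 CPM (1.64 ± 0.33, adjusted p = 0.00018). Slc7a5, the light chain of the leucine transporter, rose from 125, 120.1 and 130.3 CPM to 1115, 1126 and 1154 CPM (3.17 ± 0.17, adjusted p = 1.8e-15). In a list of amino acid and one-carbon genes put together after values were seen, 11 of 16 tested genes rose (median 1.67), among them Phgdh (2.83) and Psph (2.45) of serine synthesis and Mthfd2 (3.05), the mitochondrial folate enzyme. Of 87 tested solute carriers 10 rose and 7 fell, shares (11.5% and 8.05%) near the 12.4% and 6.42% of all tested genes, but under median-ratio scaling and quantile normalization 6 rose and 7 fell. Among other families, 4 of 9 tested kinesins rose (44.4%) and none fell. Of 29 mitochondrial ribosomal proteins 4 rose (13.8%) and none fell, and of 41 Zfp zinc finger genes 4 rose and 4 fell (9.76% each), with rises near the 12.4% of all tested genes, and 2 of 11 collagens fell (4 with edgeR), Col24a1 (-1.66) and Col5a2 (-1.63). The mitochondrial ribosomal rises numbered 2 under median-ratio scaling, quantile normalization and edgeR, and the Zfp falls 6, 5 and 7. Zfp703, a repressor studied in breast epithelium, rose from 29.8, 30.9 and 25.2 CPM in CON to 123, 108 and 103 CPM in AD_3h (1.92 ± 0.19, adjusted p = 1.2e-09).

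Compared directly with osteogenic medium at 3 h, 213 genes were higher and 121 lower in AD_3h (7.66% of the tested genes, 4.88% higher and 2.77% lower), and compared with chondrogenic medium 184 were higher and 224 lower (9.35%, 4.22% higher and 5.13% lower). These comparisons do not use CON, against which 18.4% of the tested genes passed in OS_3h (11.7% up and 6.67% down) and 18.0% in CH_3h (13.1% up and 4.88% down). Against OS_3h the largest differences were lower levels of Gldn (-5.20), an adhesion protein of nodes of Ranvier, and Kprp (-4.57), and higher levels of Gadd45a (3.72), Dll1 (3.64) and Irak2 (3.54). Against CH_3h they were lower levels of Angptl7 (-8.29), Sox9 (-5.07) and Dlk2 (-4.94), and higher levels of Plau (4.37), Dusp4 (3.93) and Il6 (3.87). Angptl7, an angiopoietin-like secreted protein, was listed at 0.442, 0.629 and 0.744 CPM in AD_3h and at a mean of 498 CPM in CH_3h. Sox9 had a mean of 17.0 ± 2.35 CPM in AD_3h, 101 ± 2.06 CPM in OS_3h and 603 ± 36.8 CPM in CH_3h, against 48.1 ± 2.38 CPM in CON. Thus it was below CON in adipogenic medium alone among the 3 media.

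Of the 541 genes that rose, 89 were higher in AD_3h than in CON, OS_3h and CH_3h alike, and of the 280 that fell, 22 were lower than in all 3. The 3 comparisons share the AD_3h samples. Under median-ratio scaling the counts were 80 and 28, with edgeR 72 and 44, with a pseudocount of 0.1 71 and 36, and with a filter of 5 CPM, which tests fewer genes, 39 and 21. Most of the higher genes were low, with 51 of the 89 under a mean of 5 CPM in AD_3h and 38 at 3 reads or fewer in every CON sample. The 7 at 50 CPM or more were Plau, Mt2A, Chac1, Dlx3, Irak2, Bcar3 and Iffo1.

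Irak2, a kinase of the interleukin 1 and Toll-like receptor pathway, was listed at 59.5, 56.3 and 57.0 CPM in AD_3h and at means of 4.64, 4.08 and 7.27 CPM in CON, OS_3h and CH_3h. Plau stood at a mean of 44.6 CPM in OS_3h and 8.10 CPM in CH_3h, both above CON but below AD_3h. Dll1, a Notch ligand, was listed at 26.4, 29.9 and 23.5 CPM in AD_3h against 5.59, 7.66 and 4.25 CPM in CON, and at means of 1.20 and 1.73 CPM in the other media. Zfp541, Mchr1 and Snx31 had no read in CON and were at least 19.9-fold, 11.2-fold and 10.4-fold higher in AD_3h. Trim72, a membrane repair protein of muscle, rose by 2.91. Notch1, named after its values were seen, rose by 2.10 together with Dll1, and these were the 2 rises (22.2%, beside 12.4% of all tested genes) among 9 tested genes of the Notch pathway, a list put together after values were seen.

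The genes lowest in AD_3h were led by Kprp, Cyr61, Adamts1, Brinp2 and Mtus1. Cyr61 had a mean of 62.0 ± 10.2 CPM in AD_3h, 557 ± 47.5 CPM in OS_3h and 479.7 ± 52.7 CPM in CH_3h. Adamts1 had means of 5710.3 and 4747 CPM in the other media, between CON and AD_3h. Mtus1, a microtubule-associated tumour suppressor, was listed at 0.995, 0.944 and 0.744 CPM in AD_3h and at means of 21.7, 6.88 and 16.9 CPM in CON, OS_3h and CH_3h. Among the 22 genes were also the adhesion and actin genes Ctgf, Tpm1 and Vcl, and Sox9, Axin2 and Gadd45b. Gadd45b, a stress sensor induced by TGF-beta and NF-kB, had a mean of 204 ± 8.80 CPM in CON and 43.6 ± 3.89 CPM in AD_3h. In a list of growth arrest genes put together after values were seen, 3 were tested, of which Gadd45b fell and its relative Gadd45a rose (1.12), a rise lost under median-ratio scaling and with edgeR.

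**Figure D5:**
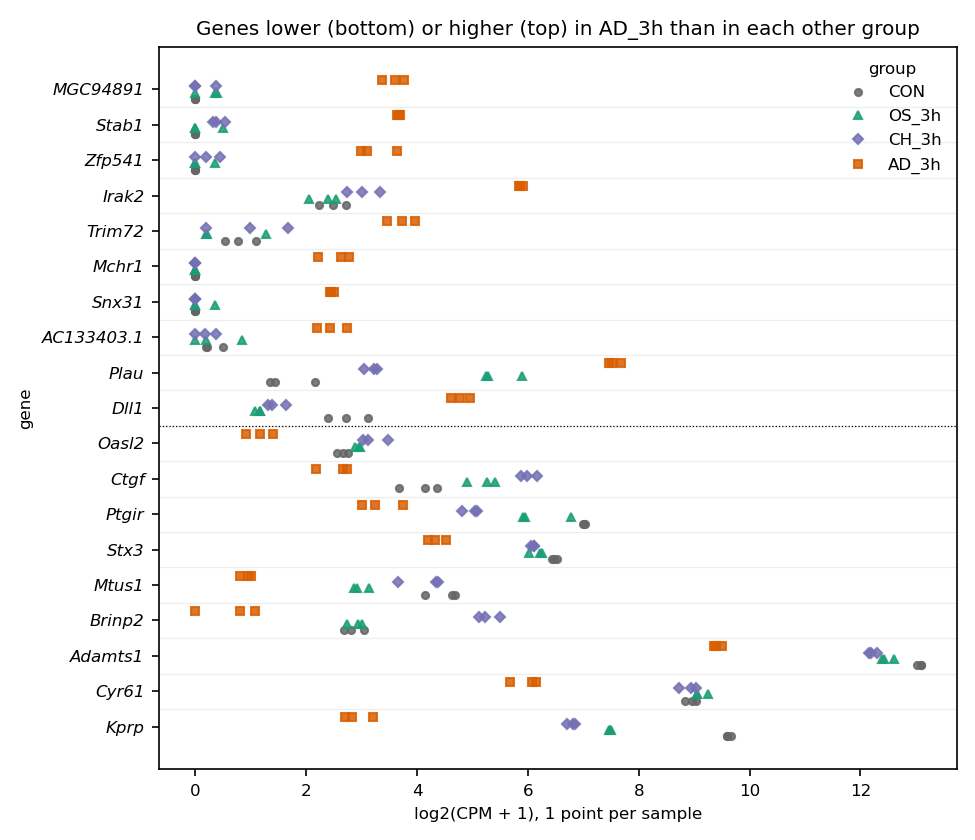
The 10 genes with the clearest higher level (top) and 9 of the 10 with the clearest lower level (bottom) in AD_3h than in CON, OS_3h and CH_3h, with log2(CPM + 1) on the x axis and 1 point per sample. Orange squares (AD_3h) stand apart from the grey, green and purple points of CON, OS_3h and CH_3h in each of the 19 genes, and Stab1 and Mchr1 lie at or near 0 outside AD_3h.

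Part of the response had moved back by 12 h. Of the 541 genes that rose, 203 fell between 3 and 12 h (37.5%) and 4 rose further, and of the 280 that fell, 92 rose (32.9%) and 8 fell further. Between 3 and 12 h in adipogenic medium 224 genes rose and 341 fell (12.9% of the tested genes, 5.13% up and 7.82% down). Of the 89 genes higher in AD_3h than in the 3 other groups 66 fell by 12 h and 1 rose, which was Mt2A, and of the 22 lower ones 6 rose and 2 fell. The difference between 3 and 12 h uses the AD_3h samples that chose these genes, so that the counts are a description. None of the 22 mitosis genes and 1 of the 18 replication genes fell between 3 and 12 h, and none of either rose (median log2 fold changes of 0.47 and 0.26). Plau had a mean of 8.37 ± 0.869 CPM at 12 h, Has2 of 58.5 ± 28.1 CPM and Sema7a of 3.12 ± 0.674 CPM. Chac1 and Slc7a5 went back to 6.15 and 107 CPM, below their means in CON. Tsc22d3 rose again, to 373 CPM, and Crispld2 and Fasn had means of 166 and 3540.4 CPM at 12 h, changes that did not pass. Adamts1 and Mgp had means of 794 and 401 CPM, still below CON, while Alpk1 and Hbp1 rose to 122 and 685 CPM. The 3 samples of AD_12h were less alike than those of AD_3h for the mitosis genes, whose summed level was 2208 to 4247 CPM in them. The listed genes held 64.6% of the total in the first AD_12h sample and 54.2% and 54.3% in the others. Without that first sample, 281 genes rose and 389 fell between 3 and 12 h.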

How the data were processed

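RNA was measured in rat BMSCs. The files give 1 value per gene and sample. The authors deposited the values under the name FPKM, but in every sample 100% of them were whole multiples of 1 step (within 0.01 reads), so that they are CPM as deposited, not corrected for gene length, and the step gave back the reads. Per the labels, Trimmomatic, HISAT2 and StringTie were used. Versions, genome build and strand setting are not given in the sources used here. The paper describes mRNA libraries and the labels name Ribo-Zero, and this was not resolved.

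Values that shared a name (729 of 9999 names) were summed. The fit was limma 3.58.1 in R 4.3.3 on log2(CPM + 1), with a trend, 1 term per group over all 30 samples and no covariates, for genes at 1 CPM or more in 3 or more samples. A call needed an absolute log2 fold change of 1 or more and an adjusted p (Benjamini-Hochberg) under 0.05, the study's thresholds. Alternatives were a pseudocount of 0.1, no filter or 5 CPM, median-ratio, quantile and equal-sum scaling, the 6 samples alone, a replicate block, each sample left out, names kept apart, and, on the reads, the quasi-likelihood test of edgeR 4.0.16. The fits were tested on simulated data, in which 200 genes were given a large change. Of these limma recovered 142 and edgeR 140, and each recovered 93 of the 94 at 10 CPM or more. Among 4163 unchanged genes limma made 4 false calls and edgeR 3. A low gene can thus change without passing. Replicates correlated at r = 0.991 to 0.993 across genes and differed beyond counting error.

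The samples, gene lists and named genes were chosen with earlier results of these data known. The genes named were the 12 largest changes each way, up to 4 per list or family and direction, 42 fixed names of which 20 were tested, the 6 largest differences each way from OS_3h and from CH_3h, and the 10 genes each way apart from CON, OS_3h and CH_3h. Hbp1, Efnb2, Notch1 and the amino acid, Notch and GADD45 lists were added after values were seen, as were the promoters printed and the matrix sum without Cemip, and other members of a list are named to describe it. Values of 2 genes are not reported here. Promoter sequences are from RefSeq (GRCr8) by gene symbol, found for 3206 of the 4363 tested genes. Tables and figures used Python 3.11.15, pandas 2.3.3 and matplotlib 3.10.9.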

Additional observations from a re-analysis of the deposited data

Results flagged for a closer look

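Some genes were called in opposite directions in 2 media at 3 h against the same 3 CON samples, with the difference between the media itself past the threshold (limma, adjusted p under 0.05). Each difference is given in log2 units as AD_3h minus the other medium, followed by the log2 fold changes of AD_3h and of the other medium against CON. Against osteogenic medium these were Ctgf (-2.66, from -1.54 and 1.12), Dll1 (3.64, from 2.04 and -1.60), Gadd45a (3.72, from 1.12 and -2.60), Hcar2 (-2.80, from -1.27 and 1.54), Mn1 (2.65, from 1.01 and -1.64), Peli2 (2.95, from 1.48 and -1.47) and Sox9 (-2.50, from -1.45 and 1.05). Gadd45a, a growth arrest gene, Dll1, Mn1 and Peli2 thus stood above CON in adipogenic medium and below it in osteogenic medium, and the reverse held for Ctgf, Hcar2 and Sox9.

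Against chondrogenic medium they were Brinp2 (-4.65, from -2.22 and 2.43), Ctgf (-3.48, from -1.54 and 1.95), Cxcl1 (3.05, from 1.51 and -1.54), Cxcl2 (3.20, from 1.60 and -1.60), Dhrs3 (-3.18, from -1.99 and 1.19), Dll1 (3.34, from 2.04 and -1.30), Dusp4 (3.93, from 2.76 and -1.16), Dusp6 (2.12, from 1.04 and -1.08), Gadd45a (3.51, from 1.12 and -2.39), Insig1 (-2.22, from -1.09 and 1.12), Kdsr (2.75, from 1.25 and -1.51), Nog (-3.15, from -1.42 and 1.73), Pard6b (-2.30, from -1.25 and 1.04) and Sox9 (-5.07, from -1.45 and 3.62). The chemokines Cxcl1 and Cxcl2 and the MAP kinase phosphatases Dusp4 and Dusp6 were above CON in adipogenic and below it in chondrogenic medium, and Sox9, Nog and Ctgf were below and above. The rises of Gadd45a, Mn1 and Dusp6 in AD_3h were not called under median-ratio scaling or with edgeR. Groups of 3 samples were too small for a search for outlying samples.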

How the results depend on the processing

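Most counts of calls and most named genes kept their direction and side of the threshold, and of the 162 named genes 136 did so under median-ratio scaling (21 lost and 5 gained a call), 143 with edgeR (13 and 6) and 157 with a pseudocount of 0.1 (3 and 2). The genes lower in AD_3h than in CON numbered 532 with edgeR against 280, and the cause was not tested. With a filter of 5 CPM, which tests fewer genes, AD_3h differed from OS_3h in 210 genes (116 higher) and from CH_3h in 256 (94 higher), and 223 fell between 3 and 12 h. One named gene reversed, Angptl7, at a log2 fold change of -0.0079 under quantile normalization, where no call was made. When each sample was left out in turn, 819 to 849 genes were called against CON (546 to 566 higher, 268 to 287 lower), 307 to 359 against OS_3h (198 to 232 and 109 to 138), 408 to 423 against CH_3h (180 to 194 and 224 to 234) and 546 to 670 between 3 and 12 h (217 to 281 and 329 to 389). A group reduced to 2 samples was taken to vary like the others. Samples of AD_3h and CON with the same replicate number did not deviate together (correlations of -0.017, 0.0076 and 0.019 over 4363 genes). No pairing by number was seen, but with 3 samples a group this check cannot exclude one. A replicate block gave 821 calls (541 higher, 280 lower) and changed no named call. Depth limits what low genes can show, since 3 reads stand for 0.332 to 0.472 CPM in these 6 samples.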
